A study of Homo sapiens with 28 samples.

Results

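The Annexin V positive, apoptotic fraction of suspended MDA-MB-231 cells that overexpressed Tpm2.1 was compared between 4 days and 2 days in suspension. The 4 libraries were chosen by their labels, 2 from 4 days and 2 from 2 days, out of 28 libraries in 14 groups of 2. MDA-MB-231 is a human triple-negative breast cancer line, and Tpm2.1 is an actin-binding tropomyosin encoded by TPM2. The other groups used here were the non-apoptotic fraction of the same Tpm2.1 cells after 4 and 2 days, the apoptotic fraction after 5 hours and 1 day, and cells carrying an empty vector (EV) in suspension for 4 and 2 days. Both lines were kept in serum-containing medium with puromycin, suspension meant ultra-low attachment plates, and the Tpm2.1 cells were parted with Annexin V beads. EV cells were not described as parted, so line and separation differ together wherever the lines are compared. The labels describe 1 line of each kind and name both libraries of each group as biological replicates but mention no separate cultures, so p values measure the spread between these samples, which may be technical.

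Anoikis is the apoptosis of cells that have lost their attachment to matrix. Annexin V binds phosphatidylserine, a lipid held on the inner face of the plasma membrane in living cells and exposed on the outer face during apoptosis, when scramblases open and flippases are cleaved. In the mitochondrial route, BH3-only proteins such as BMF and PUMA release the effectors BAX and BAK1, cytochrome c leaves the mitochondria and caspases cleave cell proteins. Late in apoptosis the membrane becomes leaky and RNA is broken down.

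TPM2, the overexpressed gene, was read first as a check of the labels. Its level was 7554 and 7133 CPM (counts scaled to the library total after TMM adjustment, which evens out differences in RNA composition) in the 4 day apoptotic libraries and 4494 and 4519 CPM in the 2 day apoptotic libraries. In EV suspension it averaged 26.0 CPM at 4 days and 41.6 CPM at 2 days, so all 4 apoptotic libraries carried the overexpressed gene at both times. The log2 fold change, 4 days over 2 days, was 0.70 ± 0.071 (SE), or 1.73 after the correction for GC content described below, and 0.38 in the non-apoptotic fraction. The counts do not separate Tpm2.1 from other TPM2 products.

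Markers of the line differed between the times in both directions. VIM, the mesenchymal intermediate filament, had 16315 and 16528 counts at 4 days and 15075 and 15207 counts at 2 days, and CD44 had 9431 and 9308 counts at 4 days and 4415 and 4935 counts at 2 days. The keratin KRT8 had 483 and 446 counts at 4 days and 3524 and 3379 counts at 2 days, LGALS1, galectin 1, had 407 and 491 counts at 4 days and 4562 and 4782 counts at 2 days, and S100A4 had 0 and 8 counts at 4 days and 79 and 74 counts at 2 days. E-cadherin, CDH1, which this line is known to lack, was near 0, with 7 and 0 counts at 4 days and 0 counts in both 2 day libraries. Of the luminal markers, PGR was at 0 in all 4 libraries, and ERBB2 had 154 and 163 counts at 4 days and 1004 and 1027 counts at 2 days. The 12 markers of the line summed to 5483 and 5695 CPM at 4 days and 3470.1 and 3627 CPM at 2 days. Of the other cell types searched for, leukocyte markers summed to 1.67 to 1.72 CPM at 4 days and 4.59 to 5.43 CPM at 2 days, with CD3E at 0 in all 4 libraries. Endothelial markers summed to 148 to 151 CPM at 4 days and 259 to 267 CPM at 2 days, with CDH5 and ERG at 0. KDR had 69.6 and 67.7 CPM at 4 days against 11.3 and 11 CPM at 2 days. PECAM1 had 9.87 and 11.8 CPM at 4 days against 5.10 and 6.05 CPM at 2 days. Other endothelial markers were lower at 4 days. ESAM had 31.4 and 30.2 CPM at 4 days against 159 and 156 CPM at 2 days. TIE1 had 39.8 and 38.6 CPM at 4 days against 89.4 and 83.2 CPM at 2 days. Fibroblast markers summed to 40.5 to 56.5 CPM at 4 days and 53.9 to 67.5 CPM at 2 days, with THY1 at 0. DCN had 48 and 32 counts at 4 days and 1 and 5 counts at 2 days. PDGFRB went the other way, with 4 and 2 counts at 4 days and 92 and 107 counts at 2 days. Luminal markers summed to 176 to 184 CPM at 4 days and 183 to 194 CPM at 2 days. Unlike ERBB2, XBP1 was higher at 4 days, with 132 and 139 CPM against 93.6 and 97.3 CPM at 2 days. FOXA1 and GATA3 were also higher in CPM at 4 days.

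The 4 day apoptotic libraries stood apart from every other library of the series. They held 13214201 and 13043529 counts over 18183 and 18676 genes, while the 2 day apoptotic libraries held 14765406 and 15221691 counts over 23856 and 23455 genes. The other 26 libraries ranged from 21275 to 24530 genes, and from 20541 to 23508 genes as computed for the smallest total. The 100 most abundant genes took 25.3% and 24.6% of counts at 4 days and 16.9% and 16.1% at 2 days, against 15.1% to 19.9% over the other 26 libraries. On the first principal component, with 41.5% of the variance, both 4 day libraries lay at 193 and 189.9 and the other 26 lay between -52.3 and 33.8.

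GC content of the transcripts, the share of G and C bases, was where they differed most visibly. Genes were cut into 5 equal groups (quintiles) by the GC content of their longest annotated transcript. The quintile richest in GC, above 57.8%, took 4.95% and 4.82% of the counts on tested genes in the 4 day apoptotic libraries and 18.3% and 17.4% in the 2 day apoptotic libraries. The quintile poorest in GC, up to 40.9%, took 29.8% and 30.3% at 4 days and 18.1% and 18.9% at 2 days. No other library had less than 15.5% in the GC-richest quintile or more than 19.4% in the GC-poorest quintile.

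**Figure D1:**
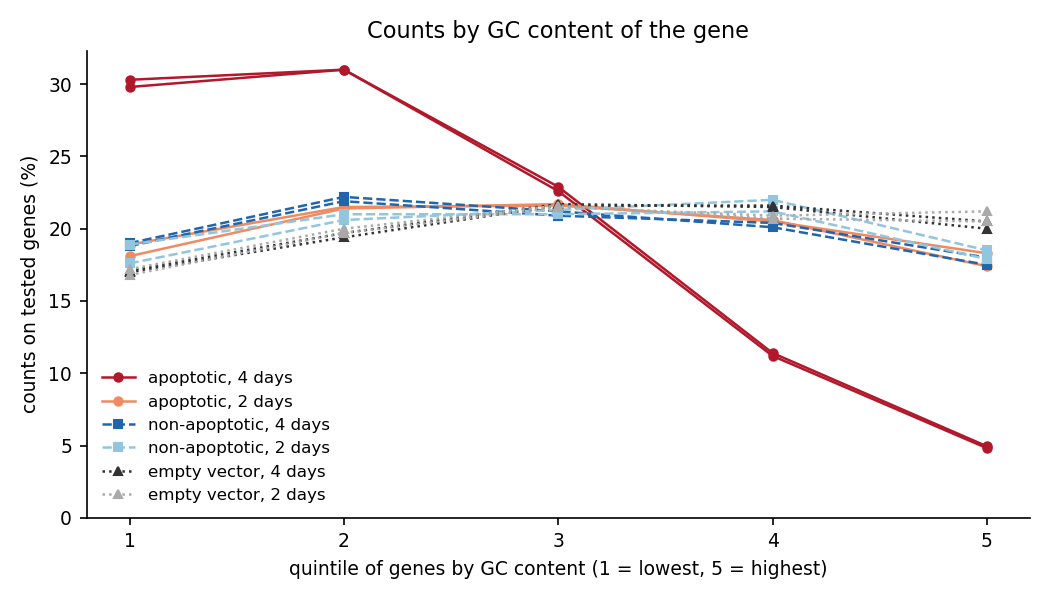
Share of counts on tested genes (percent, vertical axis) taken by each quintile of GC content (horizontal axis, poorest in GC to richest), 1 line per library, for the apoptotic fraction, the non-apoptotic fraction and EV cells at 4 and 2 days. The 4 day apoptotic lines end at 4.95% and 4.82% in the GC-richest quintile, below every other line drawn.

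The same slope appeared in the fold changes. From the GC-poorest to the GC-richest quintile, the median log2 fold change was 0.90, 0.53, -0.03, -0.94 and -2.27 in the apoptotic fraction, against 0.07, 0.01, -0.03, -0.03 and -0.02 in the non-apoptotic fraction. Across 17183 genes, which are not independent replicates, log2 fold change and GC content had a Pearson r of -0.66 and a Spearman rho of -0.72. A correction that removed a smooth GC trend from each library brought the 5 medians to -0.02, -0.04, -0.06, -0.08 and -0.22. The gene counts, the lists and most named genes of the 4 day comparison are therefore given with and without this GC correction. What gave rise to the GC trend was not tested. A loss spread evenly over all genes cannot be seen in counts scaled to a library total. Since these are bulk samples, fewer cells of a type and less RNA per cell cannot be told apart either.

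**Figure D2:**
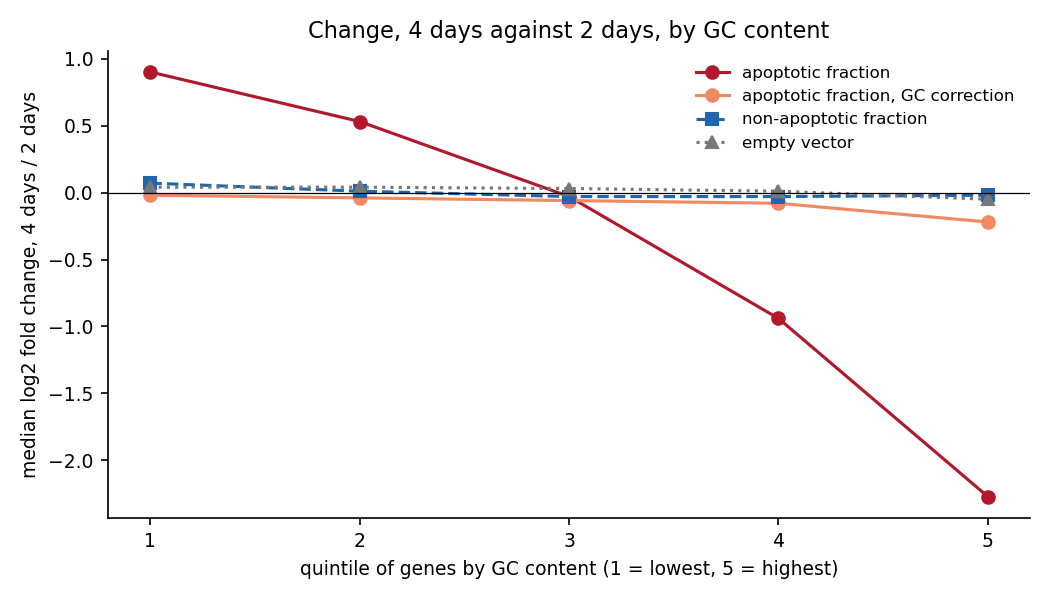
Median log2 fold change, 4 days over 2 days (vertical axis), by quintile of GC content (horizontal axis), for the apoptotic fraction before and after the GC correction, the non-apoptotic fraction and EV suspension. The uncorrected apoptotic medians run from 0.90 to -2.27, and the other lines lie between -0.22 and 0.07.

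The contrast in base composition is visible in the genes that moved most. The first 120 coding bases are shown, with G and C in capitals, for the 3 protein-coding genes with the highest fold changes and for the 3 with the lowest among those with more than 3 counts at 4 days (transcripts of GENCODE release 29, build GRCh38). SPP1 (chr4:87975650-87983426, plus strand), PTPN22 (chr1:113813811-113871759, minus strand) and CCL20 (chr2:227805739-227817564, plus strand) were highest. H1FX (chr3:129314771-129316277, minus strand), NAT14 (chr19:55485004-55487568, plus strand) and SSBP4 (chr19:18418864-18434562, plus strand) were lowest.
SPP1: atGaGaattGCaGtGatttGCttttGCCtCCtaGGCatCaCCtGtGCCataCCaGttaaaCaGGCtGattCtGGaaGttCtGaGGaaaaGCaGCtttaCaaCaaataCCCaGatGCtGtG
PTPN22: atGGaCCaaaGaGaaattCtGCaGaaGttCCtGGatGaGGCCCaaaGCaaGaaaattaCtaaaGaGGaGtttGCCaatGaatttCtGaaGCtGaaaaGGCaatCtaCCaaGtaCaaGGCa
CCL20: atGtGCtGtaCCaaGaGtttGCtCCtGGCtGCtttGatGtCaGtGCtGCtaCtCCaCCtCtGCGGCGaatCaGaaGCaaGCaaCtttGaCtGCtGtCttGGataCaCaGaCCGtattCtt
H1FX: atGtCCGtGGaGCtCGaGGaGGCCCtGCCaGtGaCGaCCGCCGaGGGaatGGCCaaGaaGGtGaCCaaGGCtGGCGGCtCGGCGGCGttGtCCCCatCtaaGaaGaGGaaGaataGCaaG
NAT14: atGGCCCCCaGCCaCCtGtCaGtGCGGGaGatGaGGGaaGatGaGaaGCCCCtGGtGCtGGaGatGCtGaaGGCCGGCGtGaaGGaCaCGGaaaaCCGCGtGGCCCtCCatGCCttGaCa
SSBP4: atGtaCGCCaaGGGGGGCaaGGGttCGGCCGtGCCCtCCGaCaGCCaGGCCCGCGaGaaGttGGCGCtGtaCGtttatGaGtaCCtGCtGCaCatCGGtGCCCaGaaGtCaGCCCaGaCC
G and C made up 44.2%, 40.8% and 49.2% of the bases shown for SPP1, PTPN22 and CCL20, and 61.7%, 62.5% and 63.3% of those for H1FX, NAT14 and SSBP4. Over the whole coding sequence the shares were 46.9%, 39.8% and 44.6% for the highest genes and 67.0%, 73.1% and 68.3% for the lowest.

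Most measured genes differed between 4 and 2 days. Of 17191 genes tested with edgeR's quasi-likelihood test at a Benjamini-Hochberg adjusted p of 0.05, 12829 (74.6%) changed, 5893 (34.3%) higher and 6936 (40.3%) lower at 4 days. Past 2-fold, 2729 (15.9%) were higher and 5060 (29.4%) lower. After the GC correction 10524 of 17183 genes (61.2%) changed, 5008 (29.1%) higher and 5516 (32.1%) lower, with 1645 (9.57%) higher and 2526 (14.7%) lower past 2-fold. Of 5891 genes higher before the correction and with a GC value, 3265 (55.4%) were called higher after it, 770 were called lower and 1856 were not called. Of those lower before it, 3837 (55.3%) were called lower after it, 1108 were called higher and 1991 were not called. The median log2 fold change of all genes was -0.13 with the scaling used (TMM) and -0.48 with library totals alone, where 4263 genes were called higher and 8437 lower. With so many genes called, the count of a gene list has to be read against these shares. Of the 12 markers of the line 5 rose and 6 fell (corrected 8 and 4). Of the markers of other cells, 3 of 8 luminal genes tested rose and 2 fell (corrected 3 and 2), as did 1 and 2 of 3 leukocyte genes (corrected 0 and 0). The GC correction turned the 5 endothelial genes, of which 2 rose and 3 fell, to 3 and 1, and the 6 fibroblast genes, of which 2 rose and 3 fell, to 4 and 2. Any part of other cells in the results was not tested. Each of the 120 genes described below passed, the weakest with an adjusted p of 2.06e-09 (INHBA-AS1). Most were picked for large changes or small p in this same fit, so their passing follows largely from the choice. Of these 120 genes, 76 are overlapped by another annotated gene, and whether the counting used strand is not stated in the labels.

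The 10 protein-coding genes with the highest fold changes were led by SPP1. It encodes osteopontin, a secreted ligand of integrins and CD44. SPP1 had 1710.4 and 1825 CPM at 4 days, against 43.6 and 81.5 CPM at 2 days, a log2 fold change of 4.82 ± 0.15 (adjusted p 1.64e-26) or 4.15 after the GC correction. In the non-apoptotic fraction SPP1 rose by 3.89 on the same scale. SERPINB2, an inhibitor of plasminogen activators, had 339.6 and 346 CPM at 4 days, against 20.5 CPM in both 2 day libraries (log2 fold change 4.07 ± 0.096, corrected 3.32). The other genes of the 10 highest were the phosphatase PTPN22 (4.28), the chemokine CCL20 (4.19), the glycosyltransferase MGAT4C (4.08), the proteoglycan SPOCK1 (3.86), the matrix protein ABI3BP (3.84), the collagenase MMP13 (3.68), the receptor SIRPB1 (3.59) and the endothelial proteoglycan ESM1 (3.51). All 10 also rose after the GC correction, by 2.68 to 4.15, and in the non-apoptotic fraction, by 2.18 to 3.89. These 10 genes were picked for the largest passing changes, so the separation of their 4 day and 2 day libraries follows from the choice.

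Inflammatory genes rose in part. Chemokines are secreted proteins that draw leukocytes. Of 12 chemokines tested, 9 rose and none fell, before and after the GC correction, with a median log2 fold change of 1.44 (corrected 1.41) beside -0.13 (corrected -0.07) over all genes. CXCL8, interleukin 8, had 2395 and 2359 CPM at 4 days, against 313 and 362 CPM at 2 days (2.82 ± 0.10, corrected 1.77). CXCL1 had 698 and 684 CPM at 4 days, against 86.1 and 102 CPM at 2 days (2.88 ± 0.085, corrected 2.53). Both genes were named for their strong change in this fit, so the separation of their libraries by time follows from the choice. CXCL3 had 95.2 and 90.7 CPM at 4 days, against 30.7 and 28 CPM at 2 days (1.66 ± 0.12, corrected 1.91). In the non-apoptotic fraction 10 of the 12 chemokines rose and none fell, with a median of 1.56.

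CXCL1 and CXCL3 both rose and are printed as promoters because theirs hold a match to a motif of NF-kB, a known regulator of chemokines. The motif searched was GGGANTTTC on both strands, from 250 bases before to 50 after the gene start (RefSeq, build GRCh38.p14). It was found in 4 of the 9 chemokine promoters with an entry, CXCL1, CXCL2, CXCL3 and CXCL5, or 44.4%, and in 354 of all 27305 promoters, or 1.3%. The match is in capitals in the promoter of CXCL1 (chr4:73869143-73869442, plus strand) and of CXCL3 (chr4:74038640-74038939, minus strand). In both it starts at position -79 from the gene start.
CXCL1: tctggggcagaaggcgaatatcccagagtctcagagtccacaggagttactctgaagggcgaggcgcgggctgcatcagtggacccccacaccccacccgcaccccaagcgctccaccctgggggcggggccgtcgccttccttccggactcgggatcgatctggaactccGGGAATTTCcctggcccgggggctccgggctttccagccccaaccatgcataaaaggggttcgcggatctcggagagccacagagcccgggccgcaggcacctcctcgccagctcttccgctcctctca
CXCL3: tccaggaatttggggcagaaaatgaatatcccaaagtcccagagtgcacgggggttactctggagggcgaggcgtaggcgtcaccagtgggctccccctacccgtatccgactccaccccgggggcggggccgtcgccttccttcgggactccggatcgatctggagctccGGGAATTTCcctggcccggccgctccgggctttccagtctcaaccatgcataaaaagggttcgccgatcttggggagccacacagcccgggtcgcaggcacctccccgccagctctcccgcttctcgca
A match is a description of letters, and no binding was measured. The promoters of CXCL1 and CXCL3 are alike over long stretches around the match. Their matches are therefore not independent of each other, which limits the share of 44.4%. CCL20 and CXCL8, which rose by 4.19 and 2.82 on the log2 scale, hold no match to these letters in the same window, which says nothing of the factor.

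Other cytokines of the NF-kB list moved in both directions. IL1B, interleukin 1 beta, had 5019 and 4899.5 CPM at 4 days, against 811 and 1057 CPM at 2 days (2.41 ± 0.074, corrected 2.08). IL6 had 371 and 396 CPM at 4 days, against 38.8 and 54.3 CPM at 2 days (3.04 ± 0.11, corrected 2.59). IL11, a cytokine of the IL6 family, had 41.7 and 38.8 CPM at 4 days, against 183 and 162 CPM at 2 days (-2.10 ± 0.072, corrected -1.03). TNFAIP2, a target of TNF signalling, had 43.2 and 39.2 CPM at 4 days, against 227 and 208 CPM at 2 days (-2.40 ± 0.066, corrected -0.27). Of 22 tested members 8 rose and 9 fell, near the shares over all genes, of which 34.3% rose and 40.3% fell. The GC correction turned the list to 12 and 3 and scaling to library totals to 7 and 14. In the non-apoptotic fraction 18 of them rose and none fell, where 18.0% of all genes rose and 16.1% fell. Of 33 AP-1 and immediate early genes, 8 rose and 19 fell, turned to 18 and 8 by the correction and to 4 and 23 by library totals. DUSP6, the phosphatase that acts on ERK, rose by 1.69 ± 0.061 (corrected 1.48), while IER5 fell by 3.16 on the log2 scale (corrected -3.01).

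Several proteases that cut matrix rose. MMP1, interstitial collagenase, had 30158 and 31638 CPM at 4 days, against 6321 and 7029 CPM at 2 days (2.21 ± 0.071, corrected 1.66). MMP3, stromelysin, had 886 and 849 CPM at 4 days, against 114 and 154 CPM at 2 days (2.69 ± 0.094, corrected 2.27). TFPI, the inhibitor of the tissue factor pathway, rose by 1.97 ± 0.069 (corrected 1.27). Of 21 proteases and plasminogen genes, 11 rose and 8 fell (corrected 11 and 5), with a median of 0.34 (corrected 1.01). Their summed level was 42011 and 43243 CPM at 4 days and 10589 and 11949 CPM at 2 days, most of it MMP1. In the non-apoptotic fraction 14 of these 21 genes rose and 3 fell, with a median of 0.90.

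Matrix protein genes went both ways. Of 30 collagens, laminins and matricellular genes, 12 rose and 14 fell, turned to 21 and 4 by the GC correction. Over all genes 34.3% rose and 40.3% fell (corrected 29.1% and 32.1%), so the uncorrected counts lie near those shares. COL7A1, the collagen of anchoring fibrils, had 115 CPM in both 4 day libraries, against 1079.6 and 897 CPM at 2 days (-3.10 ± 0.089, corrected -0.48). LAMA5, a laminin chain, had 116 and 98.6 CPM at 4 days, against 1316 and 986 CPM at 2 days (-3.42 ± 0.096, corrected -0.54). The longest transcript of COL7A1 holds 64.8% GC and that of LAMA5 66.4%, and both genes rose in the non-apoptotic fraction, by 0.41 each.

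Several growth factors and surface receptors rose, while the receptor ERBB2, given above among the luminal markers, was lower at 4 days. EREG, an EGF receptor ligand, had 1391 and 1371 CPM at 4 days, against 346 and 354 CPM at 2 days (1.98 ± 0.084, corrected 0.97). HBEGF, another such ligand, rose by 1.39 ± 0.067 (corrected 1.69), and the receptor EGFR by 0.48 ± 0.050 (corrected 0.35). Of 12 genes of the EGF receptor family and its ligands, 7 rose and 3 fell, or 4 and 4 after the correction. INHBA, the activin A subunit, rose by 2.38 ± 0.073 (corrected 1.48). NT5E, the surface enzyme CD73 that makes adenosine, had 2593 and 2782 CPM at 4 days, against 512 and 592 CPM at 2 days (2.28 ± 0.062, corrected 1.90). CD44, the hyaluronan receptor, rose by 1.55 ± 0.056 (corrected 1.18).

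Genes of the apoptosis machinery moved apart. BMF, the BH3-only gene tied to detachment, had 12.8 and 13.8 CPM at 4 days, against 33.0 and 34.2 CPM at 2 days (-1.34 ± 0.10, corrected -0.40, adjusted p 0.00135). BBC3, which encodes PUMA, had 11 counts at 4 days and 348 at 2 days over both libraries (-4.42 ± 0.27, corrected -1.02). BAD had 3 counts at 4 days and 798 at 2 days, a ratio of 182 (95% exact counting interval 62.1 to 884) in CPM. Other BH3-only genes rose. PMAIP1, which encodes NOXA, had 333 and 345 CPM at 4 days, against 120.3 and 139 CPM at 2 days (1.39 ± 0.070, corrected 0.40). BNIP3L, a mitophagy receptor, had 615 and 651 CPM at 4 days, against 173 and 199 CPM at 2 days (1.77 ± 0.069, corrected 0.86). In all, 3 of 9 BH3-only genes rose and 5 fell, before and after the correction, where 34.3% of all genes rose and 40.3% fell.

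Of the survival members of the family, BCL2A1 and MCL1 rose. MCL1 had 1751 and 1775 CPM at 4 days, against 640.5 and 680.2 CPM at 2 days (1.42 ± 0.050, corrected 1.02). BCL2A1 had 188 and 196 CPM at 4 days, against 24.9 and 26.9 CPM at 2 days (2.89 ± 0.088, corrected 2.05). The pore-forming effectors were low at 4 days. BAK1 had 3.71 and 2.96 CPM at 4 days, against 52.9 and 56.8 CPM at 2 days (-4.03 ± 0.13, corrected -2.43). BAX had 7.15 and 6.67 CPM at 4 days, against 52.7 and 52.5 CPM at 2 days (-2.93 ± 0.10, corrected -1.31). In the non-apoptotic fraction BAK1 fell by 0.29 and BAX by 0.39 on the log2 scale. Of 8 BCL2 survival genes and effectors tested, 2 rose and 6 fell (corrected 3 and 4).

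Caspase and inhibitor genes were also mixed. CASP4, an inflammatory caspase, had 234 and 260.1 CPM at 4 days, against 56.4 and 58.2 CPM at 2 days (2.11 ± 0.071, corrected 1.17). CASP8, the initiator caspase of death receptors, rose by 1.03 ± 0.083 (corrected 0.41). The inhibitor of apoptosis genes BIRC2 and BIRC3 rose by 1.13 ± 0.063 and 1.37 ± 0.071, which the correction brought to 0.17 and 0.34. MLKL, the executor of necroptosis, rose by 1.28 ± 0.060 (corrected 1.08). Of 17 caspase and apoptosome genes 4 rose and 9 fell (corrected 3 and 10), and of 7 inhibitor of apoptosis genes including CFLAR 5 rose and 1 fell (corrected 3 and 1). Of 24 p53 target genes 8 rose and 14 fell (corrected 5 and 11), where 34.3% of all genes rose and 40.3% fell.

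The genes behind the Annexin V gate itself were followed too. ANO6, a calcium-activated scramblase that exposes phosphatidylserine, had 171 and 176 CPM at 4 days, against 96.5 and 97.1 CPM at 2 days (0.84 ± 0.056, corrected 0.18). ATP8B2, a flippase, had 13.8 and 14.4 CPM at 4 days, against 34.5 and 38.8 CPM at 2 days (-1.38 ± 0.10, corrected -0.79). XKR8, the scramblase that caspases activate, had 4.62 and 3.33 CPM at 4 days, against 15.8 and 17.7 CPM at 2 days, a fall of 2.07 ± 0.17 that did not pass after the correction (-0.02, adjusted p 0.911). Of 17 flippase and scramblase genes 9 rose and 5 fell, turned to 3 and 7 by the correction and to 5 and 8 by scaling to library totals. MFGE8 and GAS6, proteins that bridge phosphatidylserine and phagocytes, both fell. MFGE8 had 17.2 and 28.3 CPM at 4 days, against 119 and 122 CPM at 2 days (-2.41 ± 0.11, corrected -2.03). GAS6 had 3.17 and 1.85 CPM at 4 days, against 43.6 and 37.7 CPM at 2 days (-4.01 ± 0.15, corrected -1.91). SPHK1, which makes the lipid find-me signal sphingosine 1-phosphate, fell by 3.77 ± 0.12 (corrected -1.05). Of 18 genes of clearance signals 9 rose and 8 fell, turned to 6 and 10 by the correction and to 5 and 9 by library totals.

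Cell cycle genes of the G2/M and G1/S lists fell together. Of 35 G2/M and mitosis genes 2 rose and 31 fell, or 0 and 34 after the GC correction and 0 and 32 with library totals, with a median of -1.02 (corrected -1.42). Of 41 G1/S and replication genes 3 rose and 37 fell, or 1 and 38 after the correction, with a median of -1.23 (corrected -1.39). UBE2C, which helps to drive exit from mitosis, had 24.9 and 25.9 CPM at 4 days, against 117 and 122 CPM at 2 days (-2.23 ± 0.072, corrected -2.05). CDC20, its partner at the anaphase-promoting complex, had 9.69 and 10.7 CPM at 4 days, against 97.4 and 96.0 CPM at 2 days (-3.24 ± 0.10, corrected -1.79). TK1, thymidine kinase, had 3.08 and 2.22 CPM at 4 days, against 112 and 107 CPM at 2 days (-5.36 ± 0.12, corrected -3.09). These 3 genes were named for their strong change in this fit, so the separation of their libraries by time follows from the choice.

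The remaining named cell cycle genes followed. BIRC5, or survivin, fell by 2.68 ± 0.092 (corrected -2.16), and AURKB, aurora kinase B, by 3.31 ± 0.11 (corrected -2.25). CDT1, which licenses origins, fell by 4.33 ± 0.12 (corrected -1.71), FEN1, the flap endonuclease, by 2.48 ± 0.076 (corrected -1.72), and the helicase subunit MCM7 by 2.40 ± 0.073 (corrected -1.0). CDK4 and CCND3, kinase and cyclin of early G1, fell by 2.48 ± 0.096 and 2.78 ± 0.089 (corrected -1.74 and -1.61). The list of D cyclins and CDK inhibitors was mixed, however. Of its 13 genes tested 5 rose and 6 fell (corrected 6 and 7), with a median of -0.13, the same as over all genes. Genes of the G2/M and G1/S lists also fell in the non-apoptotic fraction. There 34 of 35 G2/M genes fell, with a median of -1.56, and 39 of 41 G1/S genes, with a median of -1.15. Among promoters, the E2F motif TTTGGCGC was found in 8 of 35 G1/S genes with an entry (22.9%) and in 0.659% of all promoters. The CHR motif TTTGAA was found in 18 of 29 G2/M genes (62.1%) and in 15.4% of all promoters. Both motifs were searched on both strands of the same window as above.

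The tropomyosins rose as a family. TPM4 had 1949 and 1885 CPM at 4 days, against 718 and 777 CPM at 2 days (1.36 ± 0.049, corrected 1.35). TPM3 had 826 and 906 CPM at 4 days, against 319 and 349 CPM at 2 days (1.37 ± 0.056, corrected 0.94). TPM1 had 121 and 122 CPM at 4 days, against 57.7 and 60.9 CPM at 2 days (1.03 ± 0.062, corrected 0.73). With TPM2, all 4 genes rose before and after the correction, and all 4 changes were larger than in the non-apoptotic fraction, where TPM1, TPM3 and TPM4 had log2 fold changes of 0.15, -0.09 and 0.11 that did not pass.

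Adhesion genes went both ways. FLNA, filamin A, an actin crosslinker, had 310.3 and 305 CPM at 4 days, against 1723 and 1779 CPM at 2 days (-2.51 ± 0.055, corrected -0.33). FERMT2, kindlin-2, an integrin activator, had 679 and 675 CPM at 4 days, against 191 and 216 CPM at 2 days (1.73 ± 0.053, corrected 0.73). The integrin chains ITGA1 and ITGB1 rose by 2.10 ± 0.077 and 1.88 ± 0.058 (corrected 1.18 and 1.05). Of 36 actin and focal adhesion genes 10 rose and 21 fell, turned to 17 and 13 by the correction. Of 15 integrin chains 5 rose and 7 fell, turned to 6 and 5. The uncorrected integrin counts lie near the shares over all genes, 34.3% higher and 40.3% lower. The transcription factors ZEB1, ZEB2 and SNAI2, which repress epithelial genes, rose by 1.78 ± 0.056, 2.41 ± 0.099 and 1.92 ± 0.071 (corrected 0.85, 1.52 and 1.21). Of 11 mesenchymal genes 7 rose and 3 fell (corrected 8 and 2).

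EPHA2 and AKT, which the study's title names, were low in the 4 day fraction. EPHA2, a receptor tyrosine kinase for ephrins, had 136 and 141 CPM at 4 days, against 559 and 539 CPM at 2 days (-1.99 ± 0.056, adjusted p 8.35e-28). After the GC correction its change was -0.15 (adjusted p 0.00537), and in the non-apoptotic fraction EPHA2 rose by 0.30. AKT1 had 49.8 and 38.7 CPM at 4 days, against 133 and 132 CPM at 2 days, a log2 fold change of -1.58 ± 0.080 that the correction reversed to 0.57 (adjusted p 1.67e-08). AKT2 had 41.1 and 34.3 CPM at 4 days, against 112 and 95.9 CPM at 2 days, a log2 fold change of -1.46 ± 0.078 that did not pass after the correction (0.05, adjusted p 0.539). The direction of AKT1 and AKT2 thus depended on the correction. EPHA4 rose by 1.46 ± 0.095 (corrected 1.04) and EPHB4 fell by 2.52 ± 0.093 (corrected -0.60). Of 16 Eph receptors and ephrins 5 rose and 11 fell (corrected 2 and 4, and 3 and 11 with library totals), and of 27 genes of the PI3K, AKT and mTOR pathway 11 rose and 14 fell, turned to 14 and 6 by the correction.

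**Figure D3:**
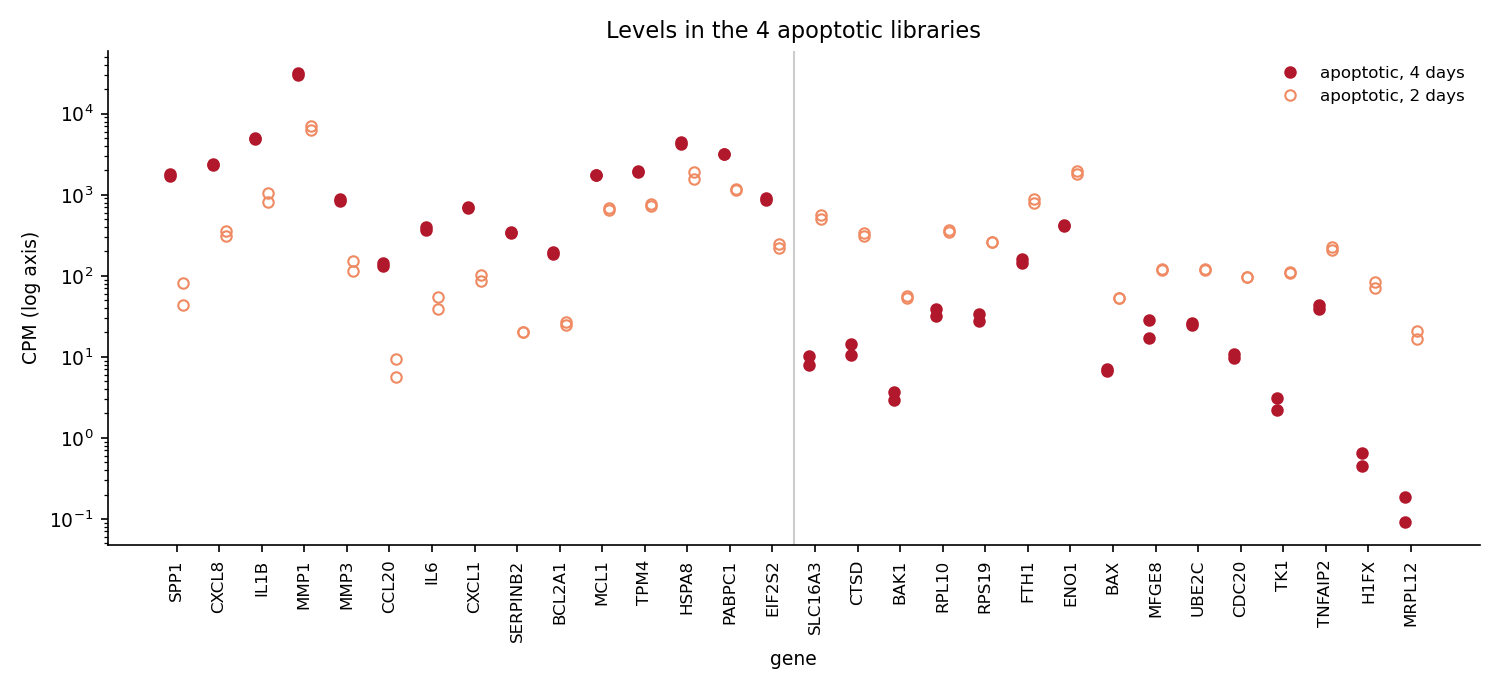
CPM on a log axis for 15 genes that rose (left of the grey line) and 15 that fell (right of it); filled points are the 2 apoptotic libraries of 4 days and open points the 2 of 2 days. The genes were picked for large changes or small p, so the separation of their 4 libraries by time follows from the choice. SLC16A3, for example, had 10.3 and 7.87 CPM at 4 days against 558 and 497 CPM at 2 days.

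Messages for ribosomal proteins went both ways, more of them down. Of 76 cytosolic ribosomal protein genes 19 rose and 45 fell (corrected 24 and 45), with a median of -0.54 (corrected -0.53), and their share of counts was 1.59% in both 4 day libraries and 2.59% and 2.65% in the 2 day libraries. RPL10 had 32.1 and 39.4 CPM at 4 days, against 350 and 367 CPM at 2 days (-3.33 ± 0.074, corrected -2.80). RPS19 had 33.7 and 28 CPM at 4 days, against 262 CPM in both 2 day libraries (-3.09 ± 0.068, corrected -1.84). Ribosomal protein genes, FTH1, ENO1, HSPA8, PABPC1 and EIF5A have close copies elsewhere in the genome, and how reads shared with them were counted is not stated in the labels.

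Translation factors went both ways. PABPC1, the poly-A binding protein, had 3222 and 3161 CPM at 4 days, against 1136 and 1183 CPM at 2 days (1.46 ± 0.049, corrected 1.80). EIF2S2, a subunit of the initiation factor eIF2, had 869 and 923 CPM at 4 days, against 220.5 and 249 CPM at 2 days (1.93 ± 0.056, corrected 1.55). EIF5A, an elongation factor, fell by 2.07 ± 0.067 (corrected -0.71). Of 30 translation factors 16 rose and 12 fell (corrected 12 and 15).

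Messages made inside mitochondria took 6.4% and 5.86% of counts at 4 days and 4.14% and 2.67% at 2 days, against at most 5.34% in the other 26 libraries. Of the 13 mitochondrial mRNAs 12 rose and 1 fell (corrected 6 and 2, and 7 and 1 with library totals). MT-CO1, a subunit of cytochrome c oxidase, had 30661 and 27712 CPM at 4 days, against 11098 and 7398 CPM at 2 days (1.66 ± 0.12, corrected 1.38). MT-ND5, a subunit of complex I, rose by 1.86 ± 0.13 (corrected 1.44). Of 40 respiratory chain genes of the nucleus 12 rose and 21 fell (corrected 5 and 28, and 3 and 27 with library totals), and COX8A had 10.2 and 6.57 CPM at 4 days, against 76.6 and 77.0 CPM at 2 days (-3.19 ± 0.11, corrected -1.62). Of 31 proteasome subunits 9 rose and 17 fell (corrected 4 and 24, and 5 and 22 with library totals), PSMD3 by 1.95 ± 0.067 (corrected -1.35).

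Metabolic and lysosomal genes held some of the deepest falls. SLC16A3, the lactate exporter MCT4, had 10.3 and 7.87 CPM at 4 days, against 558 and 497 CPM at 2 days (-5.85 ± 0.10, corrected -3.61, adjusted p 2.16e-33 before the correction). ENO1, enolase 1, had 413 and 423 CPM at 4 days, against 1823 and 1955 CPM at 2 days (-2.18 ± 0.055, corrected -1.57). Of 35 genes of glycolysis and the hypoxia response 13 rose and 22 fell (corrected 13 and 17, and 5 and 23 with library totals). CTSD, the lysosomal protease cathepsin D, had 14.3 and 10.4 CPM at 4 days, against 311 and 342 CPM at 2 days (-4.72 ± 0.10, corrected -2.25). SQSTM1, the autophagy adaptor p62, fell by 1.90 ± 0.057 (corrected -0.43). Of 36 autophagy and lysosome genes 10 rose and 22 fell, turned to 15 and 10 by the correction.

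Both ferritin chains, which store iron, fell. FTH1, ferritin heavy chain, had 160.2 and 144 CPM at 4 days, against 788 and 891 CPM at 2 days (-2.46 ± 0.078, corrected -2.26). FTL, the light chain, had 352 and 350.4 CPM at 4 days, against 1749 and 2001 CPM at 2 days (-2.42 ± 0.064, corrected -1.24). Both rose in the non-apoptotic fraction, by 0.50 and 0.15. Of 26 NRF2 targets and ferritin genes 3 rose and 19 fell (corrected 3 and 14). FASN, fatty acid synthase, fell by 2.99 ± 0.074 (corrected -0.29), within a list of 32 lipid synthesis genes of which 10 rose and 18 fell (corrected 11 and 11).

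Stress pathways did not share 1 direction. HSPA8, the constitutive HSP70 chaperone, had 4202 and 4525 CPM at 4 days, against 1565 and 1887 CPM at 2 days (1.34 ± 0.064, corrected 1.16). Of 27 heat shock and chaperone genes 15 rose and 9 fell (corrected 16 and 7), but 12 rose and 14 fell with library totals. HSP90B1, the chaperone of the endoplasmic reticulum, rose by 1.51 ± 0.064 (corrected 0.78), and 13 of 22 unfolded protein response genes rose and 7 fell (corrected 14 and 4). DDIT4, an inhibitor of mTOR induced by stress, fell by 2.93 ± 0.099 (corrected -1.44), and SLC3A2, the amino acid transporter chain and ATF4 target, by 2.85 ± 0.094 (corrected -1.47). Of 29 ATF4 genes 5 rose and 18 fell (corrected 8 and 10, and 3 and 21 with library totals). Interferon-stimulated genes were divided, with 16 of 36 up and 14 down (corrected 13 and 12, and 14 and 16 with library totals). All genes were divided too, with 34.3% up and 40.3% down. ISG15, a ubiquitin-like modifier, fell by 2.75 ± 0.086 (corrected -0.38), while IFI44 and SAMD9 rose by 1.53 ± 0.062 and 1.93 ± 0.067 (corrected 0.63 and 0.92). The zinc finger genes of chromosome 19, with a median GC content of 40.7%, rose in 28 of 43 and fell in 3, turned to 10 and 18 by the correction and to 19 and 10 by library totals.

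**Figure D4:**
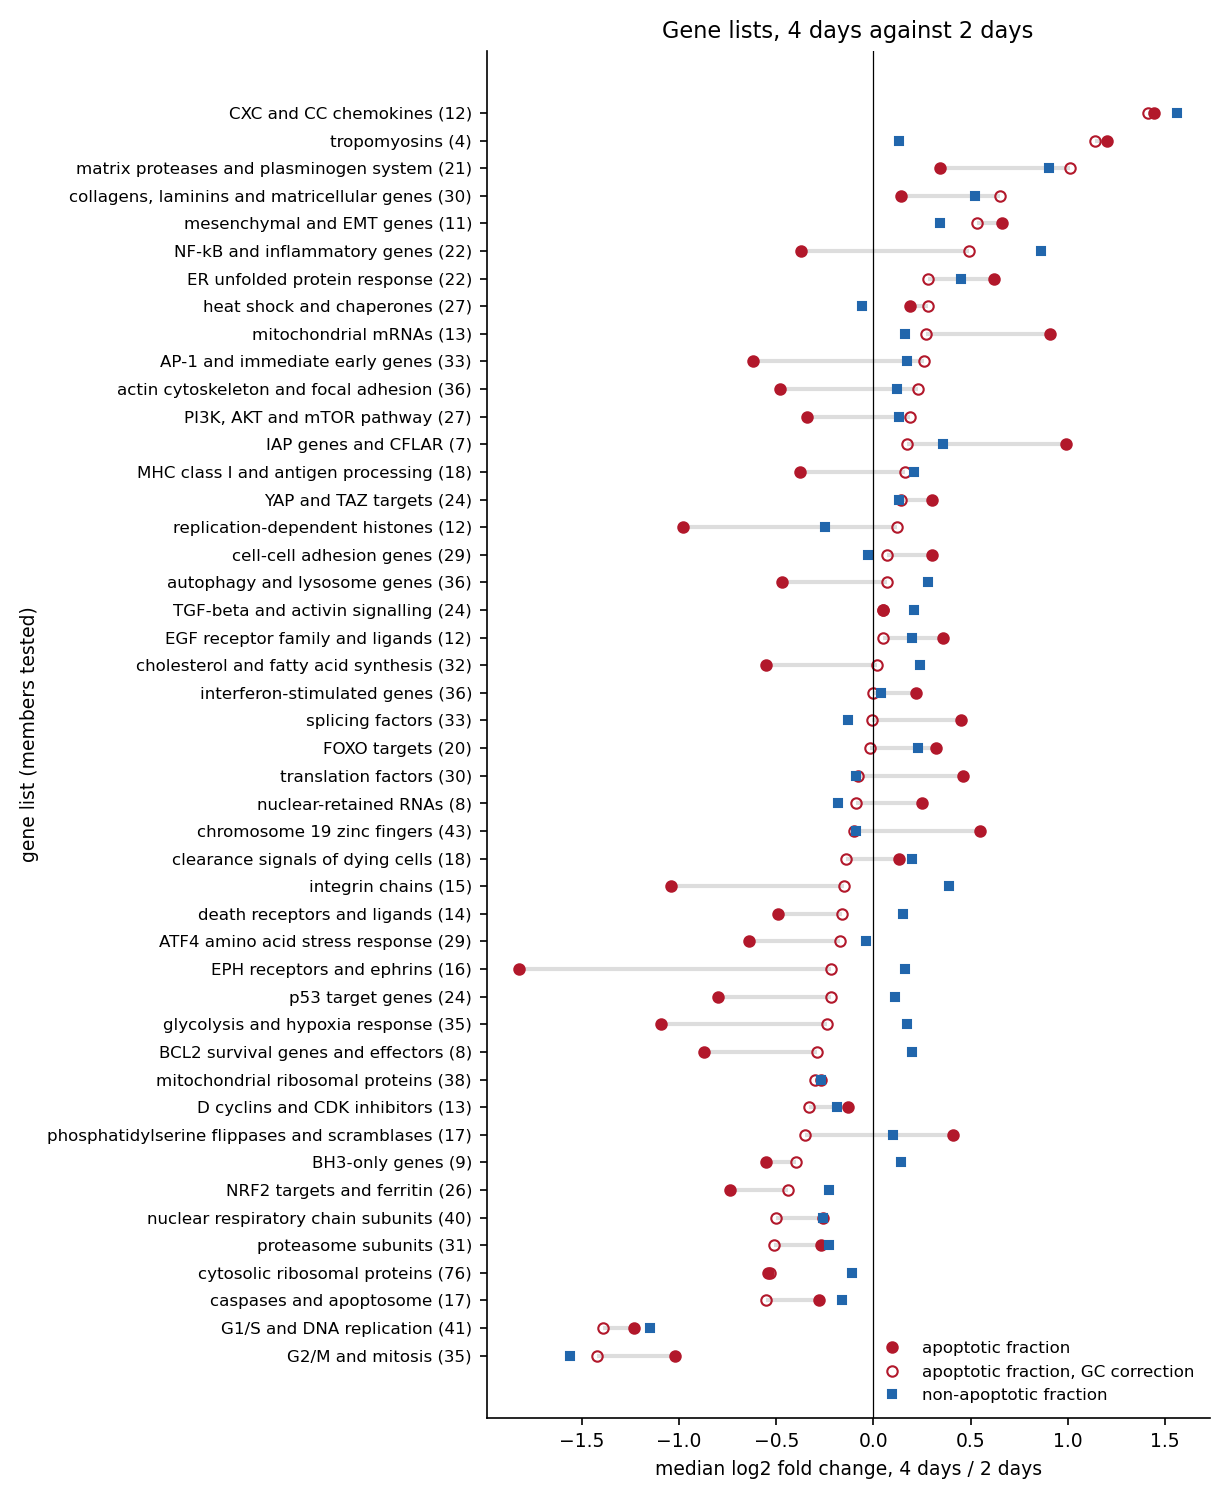
Median log2 fold change, 4 days over 2 days (horizontal axis), of each gene list (rows, with the number of members tested); filled red points are the apoptotic fraction, open red points the same after the GC correction and blue squares the non-apoptotic fraction. Chemokines lie at 1.44, 1.41 and 1.56, while Eph receptors and ephrins lie at -1.82, -0.22 and 0.16.

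At the other end, several genes were hardly counted at 4 days. C4orf48 had 0 counts at 4 days and 517 at 2 days over both libraries, at least 118-fold lower by the limit that a count of 0 allows (3 counts over the group, 0.137 CPM). SPATA2L had 0 counts at 4 days and 390 at 2 days, at least 89.0-fold lower. RTEL1-TNFRSF6B, a read-through of 2 genes whose reads cannot be told from theirs, had 0 counts at 4 days and 371 at 2 days, at least 84.6-fold lower. MRPL12, PAXX and XRCC3 had 3 counts each at 4 days and 606, 589 and 537 at 2 days. Their ratios were 138 (95% exact counting interval 47.1 to 672), 134 (45.7 to 653) and 122 (41.7 to 596). These are a subunit of the mitochondrial ribosome and factors of DNA end joining and of homologous recombination. H1FX, a linker histone, had 12 counts at 4 days and 2480 at 2 days (-7.13 ± 0.22, corrected -3.90), SSBP4 had 12 counts at 4 days and 1604 at 2 days (-6.50 ± 0.26, corrected -3.29), and NAT14 had 4 counts at 4 days and 596 at 2 days (-6.62 ± 0.31, corrected -3.60). The intervals and limits cover counting error only.

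Among long noncoding RNAs, ADAMTS9-AS1 had 33.2 and 44.6 CPM at 4 days, against 1.07 and 1.25 CPM at 2 days (5.06 ± 0.30, corrected 4.15). INHBA-AS1 rose by 3.38 ± 0.41 (corrected 3.07) and LINC02392 by 3.37 ± 0.29 (corrected 3.57). SLC9A3-AS1 had 8 counts at 4 days and 623 at 2 days over both libraries (-5.71 ± 0.32, corrected -3.31). MIR210HG, the host of the hypoxia-induced miR-210, fell by 3.65 ± 0.31 (corrected -2.14), and SNHG7 by 3.59 ± 0.15 (corrected -0.80). Reads of the 3 antisense genes cannot be told apart from those of ADAMTS9, INHBA and SLC9A3 on the opposite strand if the counting ignored strand.

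Whether these changes differed from those of the non-apoptotic Tpm2.1 cells was tested as a difference of the log2 fold changes. Between 4 and 2 days the non-apoptotic fraction changed in 5859 genes (34.1%), and the change differed between the fractions in 11044 genes (64.2%), more positive in the apoptotic fraction for 5153 (30.0%) and more negative for 5891 (34.3%). After the GC correction the change differed for 7724 (45.0%), with 3742 (21.8%) more positive and 3982 (23.2%) more negative. Of the 5893 genes higher in the apoptotic fraction, 1841 were also higher in the non-apoptotic fraction. That is 31.2% of the first list and 59.4% of the second. Another 558, or 9.47% of the first list, were lower there. Of the 6936 genes lower in the apoptotic fraction, 1710 were also lower in the non-apoptotic fraction, or 24.7% and 62.0%. Another 964, or 13.9% of the first list, were higher there. Over all genes tested, 18.0% rose and 16.1% fell in the non-apoptotic fraction, and 34.3% rose and 40.3% fell in the apoptotic fraction. The overlaps were counted without the GC correction. The comparisons in the apoptotic and the non-apoptotic fraction share no library. Whether both fractions of a time came from 1 culture is not stated.

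The most positive differences were of TIGAR, a regulator of glycolysis and p53 target (3.03 ± 0.46), the lectin CD302 (2.98 ± 0.24), the mitochondrial factor ETFRF1 (2.76 ± 0.28), the spliceosome protein SNRPF (2.66 ± 0.13) and the zinc finger gene ZNF595 (2.65 ± 0.23). SNRPF had 137 and 118 CPM at 4 days, against 37.3 and 38.7 CPM at 2 days, and in the non-apoptotic fraction it averaged 29.2 CPM at 4 days and 54.9 CPM at 2 days. TIGAR had 12.7 and 16.9 CPM at 4 days, against 1.32 and 1.87 CPM at 2 days, and in the non-apoptotic fraction it averaged 2.75 CPM at 4 days and 2.43 CPM at 2 days. The most negative differences were of C4orf48, SPATA2L, RTEL1-TNFRSF6B, MGAT2 and BAD. MGAT2, an N-glycan enzyme, had 0 counts at 4 days and 222 at 2 days in the apoptotic fraction, at least 50.6-fold lower, and averaged 10.1 CPM at 4 days and 9.35 CPM at 2 days in the non-apoptotic fraction. Its transcript holds 47.6% GC, unlike the other 4, which hold 65.3% to 73.2%.

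Gene lists were set against the non-apoptotic fraction in the same way. Their counts are to be read beside the shares over all genes. Of all genes 34.3% changed more negatively and 30.0% more positively (corrected 23.2% and 21.8%). Ribosomal proteins changed more negatively in 42 of 76 genes and more positively in 24 (corrected 41 and 25). Heat shock and chaperone genes changed more positively in 16 of 27 and more negatively in 8 (corrected 15 and 2), and NRF2 targets and ferritin genes more negatively in 16 of 26 and more positively in 5 (corrected 12 and 3). The glycolysis and hypoxia genes changed more negatively in 20 of 35 and more positively in 8 (corrected 19 and 9). For the G2/M genes the difference was positive in 21 of 35 and negative in 8 (corrected 15 and 11), with a median of 0.67.

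Against EV suspension, where 6714 genes (39.1%) changed between 4 and 2 days, the change differed in 11274 genes (65.6%). After the GC correction it differed in 8929 of 17183 genes. Within the apoptotic fraction fewer genes were called in the earlier steps, which span less time. From 5 hours to 1 day 6214 genes (36.1%) changed, and from 1 day to 2 days 2170 (12.6%). After the GC correction these steps gave 6489 and 2149 genes, against 10524 for 4 days over 2 days. The step from 1 day to 2 days shares the 2 day libraries with the 4 day comparison. The count of that step rested on single libraries, with 861 genes without the first 1 day library, 1103 without the second 2 day library and 774 with the 8 apoptotic libraries fitted alone. SLC16A3 averaged 355, 447, 527 and 9.10 CPM at 5 hours, 1, 2 and 4 days, and CTSD averaged 170.3, 340.3, 326 and 12.3 CPM. RPL10 averaged 473, 353, 358 and 35.7 CPM, and BAX 61.6, 60.8, 52.6 and 6.91 CPM. The deepest fall of each of these 4 genes lay between 2 and 4 days. SPP1 averaged 1.78, 56.4, 62.6 and 1768 CPM at the 4 times, CXCL8 averaged 90.7, 271, 337 and 2377 CPM, and MMP1 averaged 4685, 8263, 6675 and 30898 CPM. At 4 days the non-apoptotic fraction averaged 1024 CPM for SPP1, 1884 CPM for CXCL8 and 27638 CPM for MMP1, and 655 CPM for SLC16A3, 331 CPM for CTSD, 445 CPM for RPL10 and 48 CPM for BAX.

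**Figure D5:**
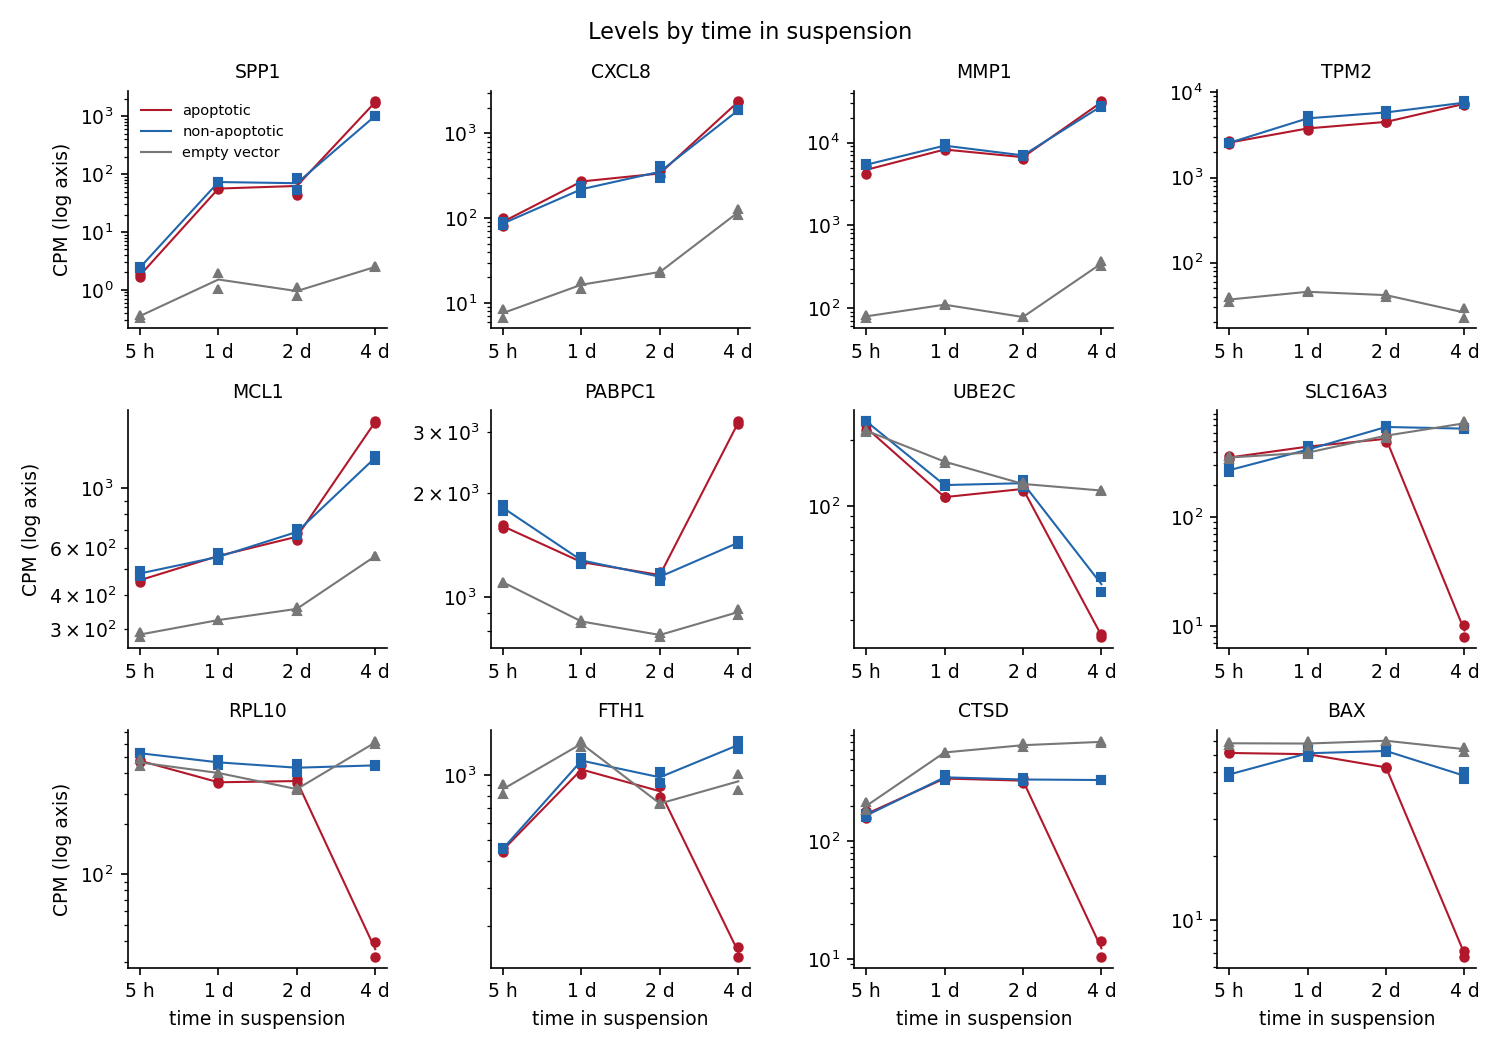
CPM on a log axis by time in suspension (5 hours, 1, 2 and 4 days) for 12 genes; points are libraries and lines join the means of the apoptotic fraction, the non-apoptotic fraction and EV cells. SPP1, CXCL8 and MMP1 climb from 2 to 4 days in both fractions, though MMP1 dips from 1 day to 2 days in the apoptotic fraction. SLC16A3, RPL10, FTH1, CTSD and BAX drop in the apoptotic fraction at 4 days, SLC16A3 to 9.10 CPM against 655 CPM in the non-apoptotic fraction.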

How the data were processed

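RNA was extracted with an RNeasy kit, selected on poly-T beads and primed with random hexamers, per the labels' protocols. The authors deposited whole-number counts and FPKM values for 58735 genes in 28 libraries. Recomputing the deposited FPKM from counts and gene lengths left a relative deviation of at most 5.3e-15, and FPKM served only as an alternative scaling. The submitters' processing notes name hg38 and, with no role, DESeq2. The aligner is not given in the sources used here. Every gene matched GENCODE release 29 by coordinates, which gave lengths and, for 58676 genes, GC content.

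The quasi-likelihood F test of edgeR 4.0.16 (R 4.3.3) was run on the counts with TMM scaling, filterByExpr and 14 group means over all 28 libraries. It tested 17191 genes, with 14 residual degrees of freedom; the common biological coefficient of variation was 4.77%. A gene passed at a Benjamini-Hochberg adjusted p of 0.05 within a contrast, and past 2-fold means an absolute log2 fold change above 1 as well. SE values are approximations, the size of the log2 fold change divided by the root of F. The GC correction removed from each library a lowess trend (span 0.2) of log2 CPM (prior count 2) on GC content, fitted on genes of at least 10 CPM, as an offset. Alternatives were other scalings, filters and sample sets, DESeq2 1.42.0, thinning to 13043529 counts, the replicate number as a block and each library left out in turn. The spread of a group left with 1 library was assumed to be that of the other groups. Scripts were tested on simulated counts in which few genes truly changed. With a GC trend put into the 4 day apoptotic libraries, 98.5% of the calls without the correction were false, 4525 of them past 2-fold. With the correction 4.4% were false. Without a GC trend 4.5% of calls were false for the 4 day comparison and 7.5% for the difference of changes, above the 5% aimed at.

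The comparison and the 51 gene lists were chosen with earlier results of these data known. Genes were named by rule: TPM2, EPHA2, AKT1, AKT2 and BMF; the 10 protein-coding genes with the highest and the 10 with the lowest passing changes, of at least 10 CPM in a group; up to 4 members of a list with the smallest p; the 5 highest and 5 lowest differences from the non-apoptotic fraction; and 3 long noncoding RNAs each way. Some genes so chosen are not named. Library totals of 13043529 to 27416335 counts limit low-count genes.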

Additional observations from a re-analysis of the deposited data

Results flagged for a closer look

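The change between 4 and 2 days differed between the apoptotic fraction and the non-apoptotic fraction in 11044 genes, and between the apoptotic fraction and EV suspension in 11274 genes, each by a test of the difference of the changes within edgeR's quasi-likelihood fit. After the GC correction the counts were 7724 genes for the non-apoptotic fraction and 8929 genes for EV suspension. Named protein-coding genes stand for the difference from the non-apoptotic fraction. The difference of the log2 fold changes, apoptotic minus non-apoptotic, was 3.03 for TIGAR, 2.98 for CD302, 2.76 for ETFRF1, 2.66 for SNRPF and 2.65 for ZNF595. At the other end the fitted difference was -11.44 for C4orf48, -11.14 for SPATA2L, -10.3 for RTEL1-TNFRSF6B, -10.03 for MGAT2 and -7.61 for BAD. These 5 fitted values rest on 0 to 3 counts at 4 days and depend on the prior count, so the fold limits and counting ratios of the report are the measure of their size. CD302 lies within the annotated read-through gene LY75-CD302. After the GC correction all 10 differences kept their direction and passed, from 2.55 for TIGAR, 2.07 for CD302, 1.84 for ETFRF1, 1.74 for SNRPF and 1.87 for ZNF595 to -4.79 for BAD and -11.61 for C4orf48.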

How the results depend on the processing

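The GC correction moved many results of the 4 day comparison. Genes past 2-fold numbered 7789 in the fit as reported, 4171 with the GC correction, 4158 with the replicate block and the GC correction, 4150 with a GC and length correction and 2603 with the GC correction and at least 100 counts in 2 libraries. That last setting, which tests fewer genes, gave 4573 genes lower and 7123 genes whose change differed from the non-apoptotic fraction. The GC and length correction and the 100-count filter with it were chosen after seeing the data, as was the crossed pairing below. AKT1 reversed to 0.57 in 3 GC settings and to 0.49 with GC and length. AKT2 was 0.05, 0.05 and 0.06 in 3 GC settings and -0.04 with GC and length, and XKR8 was 0.03 with GC and length and -0.02 otherwise. The named genes gave 508 of 520 values with the same direction and call under the GC settings and 1674 of 1674 under the other settings. Most were picked for large changes or small p in this fit, which favours keeping the call. Over all genes with a GC value, 55.4% of those higher and 55.3% of those lower kept their call after the GC correction. List counts moved by more than 1.5 times in 163 of 408 cases with a GC setting, 55 of 1326 with others and 13 of 408 with 1 library left out.

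With 1 library left out, genes changed numbered 12078 to 12667, higher 5417 to 5619, lower 6661 to 7048, past 2-fold 7338 to 7908, different from the non-apoptotic fraction 10466 to 10995 and from EV 10670 to 11102. The same range was 4504 to 5027 for the non-apoptotic fraction, 4685 to 5730 for EV, 4784 to 5317 for 1 day against 5 hours and 861 to 1964 for 2 days against 1 day. That last step, 2170 genes in the fit as reported, fell to 861 without the first 1 day library, to 1103 without the second 2 day library, to 1252 with its 4 libraries alone and to 774 with the 8 apoptotic libraries alone. The cause was not tested.

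Equal replicate numbers were not taken as pairs: deviations from the group means correlated at 0.01 between 4 and 2 days in the apoptotic fraction and at -0.02 in the non-apoptotic fraction. Between the apoptotic and non-apoptotic fractions they correlated at 0.02 at 4 days and at 0.23 at 2 days, and with the replicate block the change differed between the fractions in 11010 genes, against 11044 without it. With the replicate block 12783 genes changed over all libraries and 10481 with the 4 libraries alone. In EV the correlation was -0.12, and a crossed block gave 7531 genes against 6700 with the numbers as labelled. With 2 libraries a group and bulk RNA, genes of few counts and changes in total RNA are limited by depth and scaling.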

Other observations

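By chromosome, the median log2 fold change of the apoptotic fraction, 4 days over 2 days, followed the base composition of the genes. It was lowest on chromosome 19 at -1.32 (1164 genes, median GC content 57.8%), on chromosome 22 at -1.27 (413 genes, 55.8%) and on chromosome 16 at -1.05 (810 genes, 54.7%). It was highest on chromosome 4 at 0.58 (608 genes, 42.2%) and chromosome 13 at 0.52 (302 genes, 43.3%), apart from the mitochondrial genome at 0.59. After the GC correction these medians were -0.16, -0.30, -0.27, 0.07 and 0.12 for chromosomes 19, 22, 16, 4 and 13.

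By class of gene, the median log2 fold change was -0.10 over 13343 protein-coding genes, -0.19 over 877 lincRNAs and -0.44 over 1129 antisense genes, or -0.04, -0.22 and -0.24 after the correction. By mean level over the 4 apoptotic libraries compared, the median was -0.95 in the lowest quintile of genes and 0.57 in the highest quintile. After the correction these medians were -0.62 and 0.20. The same 4 day values enter the level and the fold change, so part of this trend is built in. By gene length the median was -0.58 in the shortest quintile and 0.31 in the longest, or -0.25 and 0.03 after the correction. The class RNAs kept in the nucleus, 8 tested, had 4 higher and 1 lower, or 3 and 3 after the correction.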
